A study of Mus musculus with 101 samples.

Results

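Target regions were compared between 31 columns of the methylation table whose names end in N and 36 columns whose names do not, within the name prefixes B1, B3A and B3B. The choice rested on the column names alone. These 67 columns are part of the 85 in the table, and the 18 columns of prefix B2, none of which ends in N, were not used. B1 held 6 columns with N and 22 without, B3A held 16 and 4, and B3B held 9 and 10. The sources used here give no meaning for the final N or for the prefixes.

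The columns came from mouse embryonic stem cell lines of Diversity Outbred stock, an outbred population bred from several inbred founder strains, so that each line has its own genotype. The titles gave both sides 1 culture, serum with LIF and 2i, a pair of kinase inhibitors that holds cells in a naive pluripotent state. DNA methylation was read by enzymatic methyl sequencing after capture of a target panel, and the study set out to measure how variable it is between lines. Of the 31 columns with N, 1 matched a library title that itself ends in N (B1_B37N), 6 named lines with 2 titles, and 24 matched a title only after the N was dropped. Columns of the last 2 kinds entered only under their prefix. So did B1_A16, a column without N that matched no title. Whether the columns came from separate cultures is not stated, so p-values cover only the spread among columns.

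Cells kept in 2i lose much of their DNA methylation, because maintenance and new methylation of the genome are both reduced. Imprinted control regions normally carry methylation on the copy from 1 parent alone and keep it through most of development, yet they too can lose it in naive culture, and a lost imprint is not restored by later growth. Promoters rich in CpGs are usually unmethylated whatever the culture, whereas bodies of genes and repeats follow the level of the whole genome.

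Columns with N had a slightly higher mean methylation than columns without in each of the 3 prefixes, by less than the spread between columns. The mean was taken over the 783 of 868 regions that at least 80% of the 67 columns covered. In B1 the columns with N ran from 14.4% to 31.3% with a median of 26.6%, and those without ran from 7.90% to 43.7% with a median of 21.1%. The B1 columns with N lay wholly inside the range of those without. In B3A the columns with N ran from 3.02% to 29.02% with a median of 12.8%. The 4 columns of B3A without N had 13.8% (B3A_3), 10.3% (B3A_30), 4.88% (B3A_34) and 4.27% (B3A_36). Of the 16 B3A columns with N, 8 lay above the highest of these 4 and 1 lay below the lowest. In B3B the columns with N ran from 4.25% to 40.2% with a median of 14.7%, against 5.47% to 42.2% with a median of 13.6% in those without. The upper end in each B3B group was a single column, B3B_44N at 40.2% and B3B_8 at 42.2%.

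The averages were 25.8% ± 6.12 (SD, n = 6) with N and 24.005% ± 10.02 (SD, n = 22) without in B1. They were 13.9% ± 8.05 (SD, n = 16) with N and 8.30% ± 4.54 (SD, n = 4) without in B3A, and 16.7% ± 10.985 (SD, n = 9) with N and 14.9% ± 10.5 (SD, n = 10) without in B3B. The difference was 1.82 points in B1 (95% interval -7.08 to 10.7, two-sided exact permutation p = 0.677), 5.596 points in B3A (-3.23 to 14.5, exact permutation p = 0.206) and 1.75 points in B3B (-8.62 to 11.96, exact permutation p = 0.717). Combined over the prefixes, with N permuted within each, the columns with N were 2.75 points higher (95% interval -2.53 to 8.06, permutation p = 0.305, adjusted p = 0.578 over 17 measures). The difference itself did not differ detectably between prefixes (permutation p = 0.818). Of the 31 columns with N, 22 lay above the median of the columns without N of their own prefix. The interval leaves room for a difference of up to 8.06 points upward, so the comparison does not show that the groups were alike. Column B3B_8 bears on this value: without it the combined difference was 3.87 points (permutation p = 0.115), and within B3B it was 4.77 points (exact permutation p = 0.265, n = 9 each). That removal was chosen after the values were seen, and B3B_44N, nearly as high but with N, was kept.

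**Figure D1:**
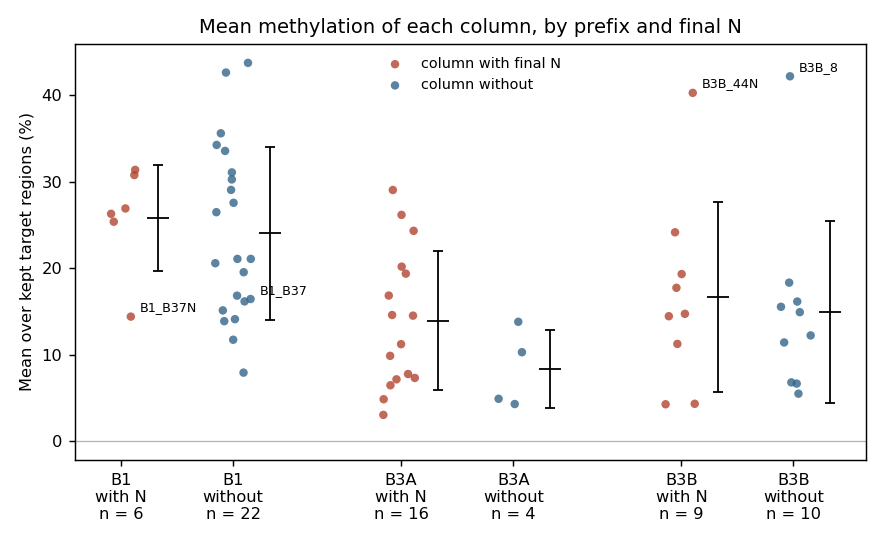
Mean methylation of each column (percent, over the kept target regions), by prefix, with columns ending in N left of those without. Points are columns and bars are the mean ± SD; the groups overlap in every prefix, and B3B_44N and B3B_8 stand high at 40.2% and 42.2%.

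The prefixes have to be held apart in this comparison, since the share of columns with N differs between them and so does the level. Pooled without regard to prefix, columns with N averaged 17.02% ± 9.57 (SD, n = 31) and columns without averaged 19.7% ± 11.1 (SD, n = 36). That puts columns with N 2.72 points below those without (difference -2.72, permutation p = 0.291), the opposite sign to the difference within prefixes.

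No single target region was called. With prefix as a covariate, limma called 0 of 783 regions at an adjusted p under 0.05 (0% of regions), and the smallest adjusted p was 0.750. At an unadjusted p under 0.05 there were 11 regions (1.4% of those tested), 7 higher (0.894%) and 4 lower (0.511%) in columns with N. The direction was nevertheless lopsided on the log2 odds scale. At intermediate methylation 1 unit of that scale is close to a doubling of the odds of methylation. An offset added to the fraction and to its complement shrinks differences at nearly unmethylated regions, so values there are not odds ratios. On that scale 565 of 783 regions (72.2%) were higher in columns with N, with a median difference of 0.21. Regions of 1 column share its level, so these 565 are not separate pieces of evidence. With each CpG of the CpG table as the unit, limma called 0 of 7917 CpGs (0%), and 266 (3.36%) had an unadjusted p under 0.05, 115 higher (1.45%) and 151 lower (1.91%). Within prefixes limma called 0 regions in B1, 0 in B3A and 0 in B3B. The unadjusted counts were 13 in B1 (1.66%), all lower in columns with N, 15 in B3A (1.92%), of which 13 were higher (1.66%) and 2 lower (0.255%), and 4 in B3B (0.511%), all higher. The test of whether the difference varies between prefixes also called 0 regions, with 9 (1.15%) at an unadjusted p under 0.05.

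The region that ranked first in the combined comparison overlaps Pramel18, a member of the PRAME-like gene family, and belongs to the authors' category of 2-cell stage genes (mm10, chromosome 4, 101908870 to 101909370). In B1 it ran from 43.1% to 76.0% with a median of 59.1% in columns with N, and from 11.4% to 76.4% with a median of 46.3% in those without. In B3A columns with N it ran from 6.25% to 68.8% with a median of 26.5%. The 4 B3A columns without N had 27.7%, 16.7%, 10.9% and 7.65%. In B3B it ran from 4.36% to 90.7% with a median of 37.7% in columns with N, and from 5.61% to 51.6% with a median of 16.5% in those without. The groups overlapped in each prefix, with the median higher in columns with N in all 3. The combined difference was 16.02 ± 5.28 (SE) points, or 1.11 on the log2 odds scale (95% interval 0.35 to 1.87), with limma p = 0.0049 and adjusted p = 0.750.

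Among the 12 regions with the smallest combined p, 8 were higher and 4 lower in columns with N, and none passed the adjusted threshold in limma. Those that were higher were intermediately methylated. Beside Pramel18 they overlap Ppfibp1, which codes for a liprin, Gm41005, the growth factor gene Fgf1, the transporter gene Abcb5, Ptpn5, a neural tyrosine phosphatase, Arsk, a lysosomal sulfatase, and Wdfy3, an adaptor in selective autophagy. The regions at Pramel18, Ppfibp1, Abcb5, Ptpn5, Arsk and Wdfy3 held no CpG of the CpG table. Fits on single CpGs or on averages rebuilt from them therefore do not check these regions, and which CpGs entered their averages is unknown. At Abcb5, another region of the 2-cell stage category, columns with N averaged 67.1% in B1, 25.4% in B3A and 25.1% in B3B, against 47.1%, 9.61% and 20.3% in columns without. Its combined difference of 13.4 ± 5.99 (SE) points had an adjusted p of 0.750. At Ppfibp1, of the B6J vs 129 category, the combined difference was 13.3 ± 5.503 (SE) points, with 66.7%, 34.6% and 40.9% in columns with N and 52.6%, 22.99% and 27.2% in those without, in B1, B3A and B3B in that order.

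The 4 that were lower were nearly unmethylated, all in the aging_Young category. They overlap Fgfr3, a fibroblast growth factor receptor, Gm34939, Samd4, which codes for an RNA-binding translational repressor, and Tmem51os1. The Tmem51os1 region held no CpG of the CpG table. At Fgfr3 columns with N averaged 0.285% in B1, 0.446% in B3A and 0.443% in B3B, against 0.883%, 0.858% and 0.638% in columns without. The 4 B3A columns without N had 0.613%, 0.594%, 1.62% and 0.612%, of which B3A_34 stood apart. The combined difference of -0.34 on the log2 odds scale (95% interval -0.59 to -0.08) is -0.400 points. At Samd4 the averages with N were 0.864%, 0.866% and 0.806%, against 1.93%, 1.25% and 1.29% without, and the combined difference was -0.673 ± 0.409 (SE) points. The scale matters here: these differences run from -0.343 to -1.01 points, while those of the 8 higher regions run from 4.62 to 16.02 points.

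**Figure D2:**
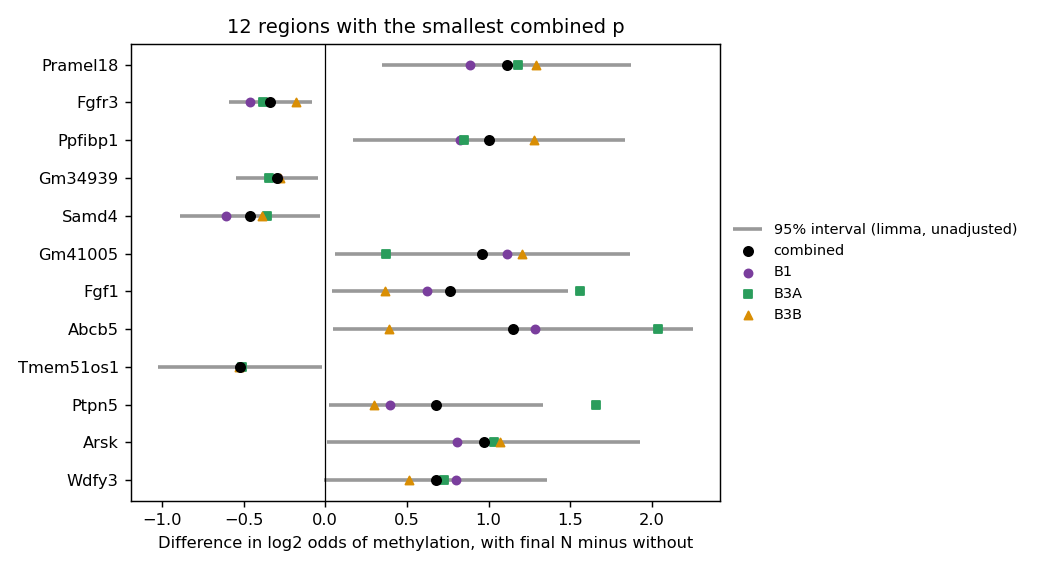
Difference in log2 odds of methylation, columns with N minus columns without, at the 12 regions with the smallest combined p. The offset of this scale shrinks the differences at the 4 regions below 0, which are nearly unmethylated. Black points are the combined value with its unadjusted 95% interval from limma and coloured points the value within each prefix; 8 regions lie above 0 and 4 below, and none passed the adjusted threshold.

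The regions that ranked first within 1 prefix did not rank first in the others. In B1 the 5 with the smallest p were all lower in columns with N and all nearly unmethylated. They overlap Trank1, Myo10, an unconventional myosin gene, Ehmt2, which codes for the histone H3 lysine 9 methyltransferase G9a, Gdpgp1 and Scarletltr. At Ehmt2 B1 columns with N ran from 0% to 0.333% with a median of 0.0216%, against 0% to 4.46% with a median of 0.970% in those without (-0.69 on the log2 odds scale, limma p = 0.0208, adjusted p = 0.992). In B3B the same region averaged 0.899% with N and 0.263% without. In B3A the region overlapping Sp110, which codes for a nuclear body protein, had a median of 12.8% with N, while the 3 columns without N that had a value stood at 14.2%, 0% and 1.65% (2.34 on the log2 odds scale, adjusted p = 0.663). In the same prefix Irak3, which restrains Toll-like receptor signalling, ran from 0% to 7.87% with N, and the 4 columns without had 5.73%, 18.1%, 3.91% and 6.76% (adjusted p = 0.663). The rest of the 5 in B3A were Ptpn5 and a region of the Rasgrf1 locus, both higher with N, and Prr13, which was lower. Ptpn5 was also among the 12 of the combined comparison. In B3B a region overlapping Lhx9, a LIM homeobox gene, had a median of 28.1% with N and 14.1% without (1.29 on the log2 odds scale, limma p = 0.0423). Another Lhx9 region had medians of 23.6% and 10.3% (1.64, limma p = 0.0437). The rest of the 5 in B3B were Pramel18, first in the combined comparison, Rhobtb3 and Aox1, all higher with N. None of the 5 had an adjusted p under 0.05.

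The imprinting category held 23 regions at 21 loci. Columns with N had a higher mean percent methylation than columns without at 21 of 21 loci in B1 and at 21 of 21 in B3A, but at 4 of 21 in B3B. Over all kept regions, on the same percent scale, the counts were 367 of 783 in B1, 719 of 783 in B3A and 540 of 783 in B3B. No variation of the difference between prefixes was detected at single loci, where 0 of 21 had an unadjusted permutation p under 0.05 for it, or in the imprinted mean (permutation p = 0.330). The loci of a column vary together, so these counts describe the columns and are not separate tests.

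The promoters printed here were picked by name rather than by a rule. Among the imprinted loci, Gpr1 and Nap1l5 had the smallest permutation p (0.0279 and 0.0776). The promoters lie in 3 imprinted targets and in the target that ranked first in B1, and show where some of the measured CpGs of these targets sit. The whole targets held 29 CpGs of the CpG table at Gpr1, 53 at Plagl1 and 72 at Trank1. They run 5′ to 3′ from 250 bases before to 50 bases after the gene's start, from RefSeq on GRCm38.p6, the same assembly as mm10, and capitals mark the CG pairs with a value in the CpG table. Of 32851 promoters in that RefSeq table, 164 held such a CpG, while 94.6% held a CG at all (both strands read the same for CG). The Zdbf2 promoter listed here lies in the target named Gpr1 here, after the RefSeq gene it overlaps (chr1:63200108-63200407, plus strand, 12 of 15 CG measured). The locus named Zdbf2 among the imprinted loci is made of other targets on the same chromosome. Values of this promoter therefore belong to the Gpr1 locus and do not describe the Zdbf2 locus. The Nap1l5 promoter is chr6:58907077-58907376 on the minus strand (14 of 17), the Plagl1 promoter chr10:13090582-13090881 on the plus strand (12 of 26), and the Trank1 promoter chr9:111311489-111311788 on the plus strand (39 of 40).
Zdbf2: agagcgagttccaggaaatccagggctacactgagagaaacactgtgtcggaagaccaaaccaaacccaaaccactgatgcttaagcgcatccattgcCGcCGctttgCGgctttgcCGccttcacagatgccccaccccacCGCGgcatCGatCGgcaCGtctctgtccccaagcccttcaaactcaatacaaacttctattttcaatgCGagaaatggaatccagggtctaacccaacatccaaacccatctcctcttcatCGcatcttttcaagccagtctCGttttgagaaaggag
Nap1l5: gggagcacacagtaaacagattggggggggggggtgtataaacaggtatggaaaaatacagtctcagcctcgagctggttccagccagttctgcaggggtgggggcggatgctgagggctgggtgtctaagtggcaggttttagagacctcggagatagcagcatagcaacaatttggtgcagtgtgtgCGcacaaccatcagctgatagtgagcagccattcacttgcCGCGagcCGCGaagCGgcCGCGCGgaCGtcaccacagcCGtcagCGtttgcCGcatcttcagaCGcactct
Plagl1: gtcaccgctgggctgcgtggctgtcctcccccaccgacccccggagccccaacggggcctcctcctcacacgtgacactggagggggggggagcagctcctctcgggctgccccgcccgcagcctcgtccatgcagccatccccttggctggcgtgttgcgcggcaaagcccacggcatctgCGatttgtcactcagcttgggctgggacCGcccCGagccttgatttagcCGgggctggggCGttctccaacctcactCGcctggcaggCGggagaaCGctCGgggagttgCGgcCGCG
Trank1: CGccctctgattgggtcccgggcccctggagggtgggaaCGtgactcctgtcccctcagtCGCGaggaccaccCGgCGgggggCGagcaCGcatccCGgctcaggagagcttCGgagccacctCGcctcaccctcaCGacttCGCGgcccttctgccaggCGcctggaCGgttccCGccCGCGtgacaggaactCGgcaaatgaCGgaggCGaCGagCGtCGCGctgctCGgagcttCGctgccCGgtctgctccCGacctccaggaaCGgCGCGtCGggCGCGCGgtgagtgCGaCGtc

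In the Zdbf2 promoter all 12 measured CpGs averaged higher in columns with N in B1, by 9.84 to 18.6 points, and all 12 in B3A, by 3.31 to 10.2 points. In B3B 8 of the 12 were higher and the median difference was 0.846 points. The 14 CpGs of Nap1l5, an imprinted gene inside an intron of another gene, were all higher with N in B1 and in B3A, and 12 of them in B3B, where the median difference was 1.22 points. The 12 CpGs of Plagl1, a zinc finger gene expressed from the paternal copy, were all higher with N in B1 (4.76 to 10.8 points) and in B3A (5.76 to 13.2 points), and 1 of 12 was in B3B. In the CpG-dense Trank1 promoter no CpG averaged above 1.90% in B1 columns with N or 2.87% in B1 columns without. Of its 39 measured CpGs, 5 were higher with N in B1, 24 in B3A and 20 in B3B. Neighbouring CpGs of 1 target share its columns, so none of these CpG counts is separate evidence. Over all kept regions, 46.9% were higher with N in B1, 91.8% in B3A and 69% in B3B on the percent scale.

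At the Gpr1 locus B1 columns with N averaged 39.3% ± 11.8 (SD, n = 6) and those without 22.3% ± 13.6 (SD, n = 22). In B3A the averages were 15.2% ± 16.3 (SD, n = 16) with N and 7.46% ± 6.23 (SD, n = 4) without, and in B3B 8.33% ± 12.2 (SD, n = 9) with N and 8.33% ± 9.78 (SD, n = 10) without. Its combined difference of 8.28 points (95% interval 0.916 to 15.8) had the smallest p of the 21 loci (permutation p = 0.0279), the only one under 0.05 before adjustment. On the log2 odds scale the Gpr1 difference was 0.56 (95% interval -0.40 to 1.52, limma p = 0.250). In 18 of 20 alternatives of that fit its unadjusted limma p was at or over 0.05. With adjustment over all regions, limma called 0 of the 23 regions (smallest adjusted p = 0.750). The Peg13 locus, an imprinted noncoding RNA gene, was the most methylated of the 21 in all 3 prefixes, at 52.1%, 40.5% and 29.1% in columns with N and 42.3%, 22.1% and 29.7% in those without. At the H19 locus, methylated on the paternal copy, the averages were 45.9% with N and 39.4% without in B1, 23.97% and 10.8% in B3A, and 21.5% and 23.9% in B3B. At Snrpn, methylated on the maternal copy, they were 41.8% and 34.1% in B1, 25.4% and 14.4% in B3A, and 17.1% and 21.1% in B3B, in the same order. The Rasgrf1 locus, whose difference was 3.12 points, had a value in 64 of the 67 columns, and 3 columns were left out of its test. It averages 2 regions, or 1 region alone where the other has no value. Column B1_B37N stood at 30.9% from 1 region alone, while B1_B37 stood at 17.1% with 34.2% in that same region. Missing regions therefore enter this locus difference and the imprinted mean.

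**Figure D3:**
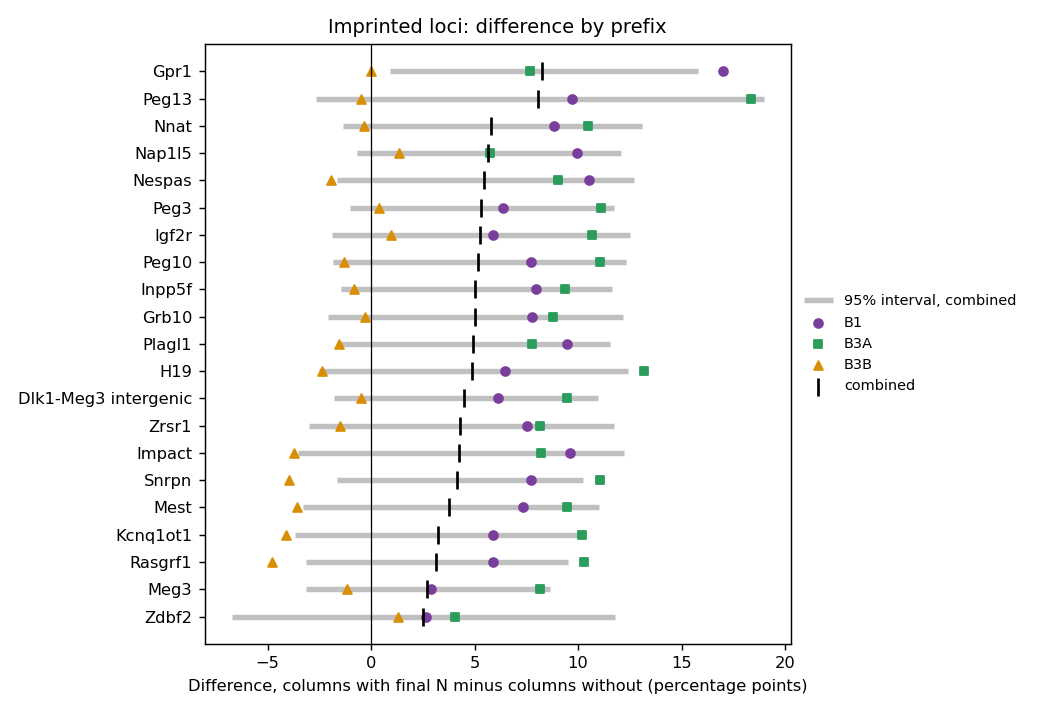
Difference in methylation at each of 21 imprinted loci, columns with N minus columns without (percentage points), within each prefix (coloured) and combined (black bar, with its 95% interval in grey). Points of B1 and B3A lie above 0 at all 21 loci and those of B3B at 4.

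Averaged over the 21 loci, imprinted methylation was 36.5% ± 4.90 (SD, n = 6) with N and 28.7% ± 10.9 (SD, n = 22) without in B1. It was 20.4% ± 11.6 (SD, n = 16) with N and 10.7% ± 8.01 (SD, n = 4) without in B3A, and 15.5% ± 11.7 (SD, n = 9) with N and 16.8% ± 13.7 (SD, n = 10) without in B3B. The combined difference was 4.86 points (95% interval -1.53 to 11.3, permutation p = 0.135, adjusted p = 0.578 over 17 measures). Leaving out column B3B_8, while keeping B3B_44N, the high B3B column with N, gave 6.28 points (permutation p = 0.0341). That setting and the leaving out of a whole prefix were chosen after the values were seen. Leaving out a whole prefix gave 3.10 points without B1 (permutation p = 0.484), 3.24 points without B3A (permutation p = 0.395) and 8.55 points without B3B (permutation p = 0.0248), B3B being the prefix where the difference was negative.

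Part of an imprinted level is the level of the whole column, so the mean of the other regions was subtracted within each column. That removes the column level only if imprinted loci rise with it point for point, which was not tested. In B1 all 6 columns with N then fell in a narrow band, from 9.14 to 13.2 points above the other regions, while the 22 columns without ran from -8.36 to 13.6 points with a median of 4.93. Of those 22, 18 lay below the lowest column with N and 1 above the highest. The 18 include the 5 columns without N whose library mean lay above every B1 column with N, at -8.36 to 8.92 points. They also include the 4 whose library mean lay below every B1 column with N, at -3.04 to 4.01 points. The averages were 10.995 ± 1.69 (SD, n = 6) with N and 4.84 ± 5.47 (SD, n = 22) without, a difference of 6.16 points (95% interval 1.47 to 10.9, exact permutation p = 0.0122, adjusted p = 0.621 over 51 tests of 17 measures in 3 prefixes). In B3A the difference was 4.15 points (95% interval -2.78 to 10.995, exact permutation p = 0.230), with columns with N from -4.19 to 15.2 points and the 4 without at 5.18, 6.03, 0.885 and -2.16. In B3B it had the opposite sign, -3.16 points (95% interval -7.59 to 1.12, exact permutation p = 0.148, n = 9 and 10), and the lowest value was that of B3B_15N at -12.4 points. The difference varied between prefixes before adjustment (permutation p = 0.0186, adjusted p = 0.316 over 17 measures). Without B3B_15N that p was 0.0527. Combined over the prefixes the difference was 2.16 points (95% interval -0.797 to 5.24, permutation p = 0.152). It was -0.214 points without B1 (permutation p = 0.911), 1.49 points without B3A (permutation p = 0.378) and 5.35 points without B3B, the prefix of opposite sign (permutation p = 0.00703). The columns and prefixes left out here were chosen after the values were seen.

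**Figure D4:**
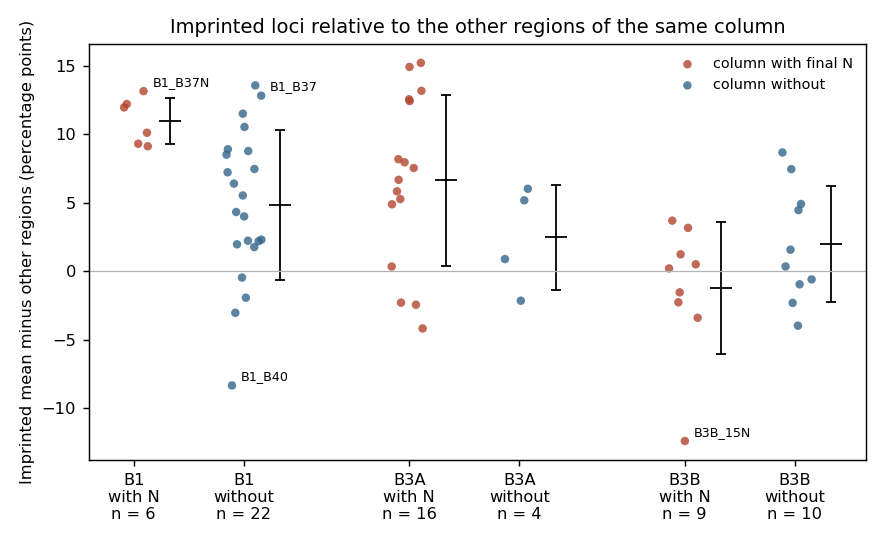
Mean over 21 imprinted loci minus the mean of the other regions of the same column (percentage points), by prefix, with columns ending in N left of those without. Points are columns and bars the mean ± SD; the 6 B1 columns with N lie between 9.14 and 13.2 points, and B3B_15N lies lowest at -12.4.

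None of the other categories that were averaged per column passed the adjusted threshold. The 2-cell stage category, genes switched on when the embryo first transcribes its genome, held 45 regions. Of these 36 (80%) were higher in columns with N on the log2 odds scale, against 72.2% of all regions. The category's median difference of 0.48 on the log2 odds scale stood beside 0.21 over all regions. Columns with N averaged 39.9%, 19.3% and 23.5% over this category in B1, B3A and B3B, and columns without averaged 33.6%, 10.5% and 19.7%. The combined difference was 5.97 points (95% interval -1.31 to 13.3, permutation p = 0.106, adjusted p = 0.578), and 7.44 points without column B3B_8 (permutation p = 0.0305). Leaving out B3B_8 was chosen after the values were seen, and B3B_44N, the high B3B column with N, was kept. The 14 X-linked regions were 5.21 points higher (95% interval -3.02 to 13.5, permutation p = 0.212).

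Gene lists showed the same absence of calls in limma. The germline list includes genes that silence transposons or run meiosis, and such genes are commonly methylated in somatic cells. Of its 21 regions, 17 were higher with N on the log2 odds scale (81.0%, against 72.2% of all regions) and 0 were called. Dazl, an RNA-binding protein gene of germ cells, averaged 31.9%, 20.8% and 22.96% with N and 31.6%, 11.9% and 21.2% without, in B1, B3A and B3B in that order. Among 9 regions of lineage transcription factors 6 were higher (66.7%) and 0 were called. The 3 regions of the naive pluripotency genes Nanog, Zfp42 and Tbx3 were nearly unmethylated on both sides, with combined differences of -0.17, -0.09 and -0.09 on the log2 odds scale, none called. In percent Zfp42 went the other way, by 0.145 points, with 1.99% with N and 0.586% without in B3B. Their mean was 0.167%, 0.264% and 0.745% with N and 0.534%, 0.481% and 0.267% without, and the combined difference was -0.0125 points (95% interval -0.361 to 0.329, permutation p = 0.948). Methylation gives no direct reading of whether those genes were expressed. At Tet3, a dioxygenase that takes part in removing methylation, the averages were 74.9%, 47.5% and 50.9% with N and 64.3%, 32.7% and 49.4% without. At Dnmt3l, a cofactor of new methylation, they were 34.6%, 20.01% and 24.7% with N and 36.1%, 13.2% and 22.6% without.

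With the level of the column as a covariate, limma again called 0 regions (0%), the smallest adjusted p was 0.0925, and 108 regions (13.8%) had an unadjusted p under 0.05. Of these 59 were higher (7.54%) and 49 lower (6.26%) in columns with N. The covariate took the median over all regions to 0.01 on the log2 odds scale, so the values that follow are relative to the column's level. The 8 regions with the smallest p held Pramel18 first (0.86 ± 0.21 SE, limma p = 1.18e-04, adjusted p = 0.0925). Over 18 alternatives of the combined fit in which it could be fitted, its adjusted p ran from 0.0925 to 0.989. Next came Tpm3, a tropomyosin gene, which was lower (-0.64 ± 0.18 SE, adjusted p = 0.240). AU015228 and Eif4a3l2, both of the 2-cell stage category, the adaptor gene Pik3ap1, Cpt1c, a brain carnitine palmitoyltransferase gene, and Fabp9, a testis fatty acid-binding protein gene, were higher by 0.33 to 0.41, each with an adjusted p of 0.240. Tmem51os1 was lower by this measure too (-0.65 ± 0.20 SE). Of the 45 regions of the 2-cell stage category, 34 were higher, beside 398 of 783 (50.8%) over all regions. At an unadjusted p under 0.05, 9 of the 45 were higher and 0 lower, beside the 59 and 49 over all regions. Regions of 1 column vary together, so these counts are not separate tests.

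One pair of columns differs in name only by the final N, B1_B37N and B1_B37, and their methylation was closely alike. The titles give each a library of its own. Over 763 regions with a value in both, the mean absolute difference was 2.91 points, the smallest of all 378 pairs of B1 columns, the others running from 4.27 to 35.95 points with a median of 10.8. B1_B37N had a mean of 14.4% and B1_B37 16.4%, so both were among the lower B1 columns. After each region was centred on its B1 mean, the values of the pair correlated over regions at r = 0.651. Only the pair of B1_B15N and B1_B44 was higher (r = 0.668), and the other 377 pairs had a median of -0.0349. Over the 23 imprinted regions the pair had the highest correlation of all (r = 0.900 over 22 regions, against a highest value of 0.796 among the others). Over 72 regions of the B6J vs 129 category it ranked 2nd (r = 0.721), and over 45 regions of the 2-cell stage category it ranked 82nd (r = 0.291). These correlations share the level of each column and carry no test.

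Of the 763 regions, 721 (94.5%) differed by under 10 points between B1_B37N and B1_B37, and 0 by over 25 points. B1_B37N was higher at 170 regions and at 3 of the imprinted ones. The largest gaps upward were at Pramel19 (47.6% in B1_B37N, 27.4% in B1_B37), Wdfy4 (45.5% and 27.03%) and Abcb5 (52.5% and 35.4%), in that order of columns. The largest downward were at Nxf3 (16.7% and 35.7%) and Glis1, a zinc finger transcription factor gene (22.7% and 40.8%). With 1 column each, these differences have no replicate check. Leaving both columns out of the combined comparison moved the difference in library mean to 3.45 points (permutation p = 0.207).

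**Figure D5:**
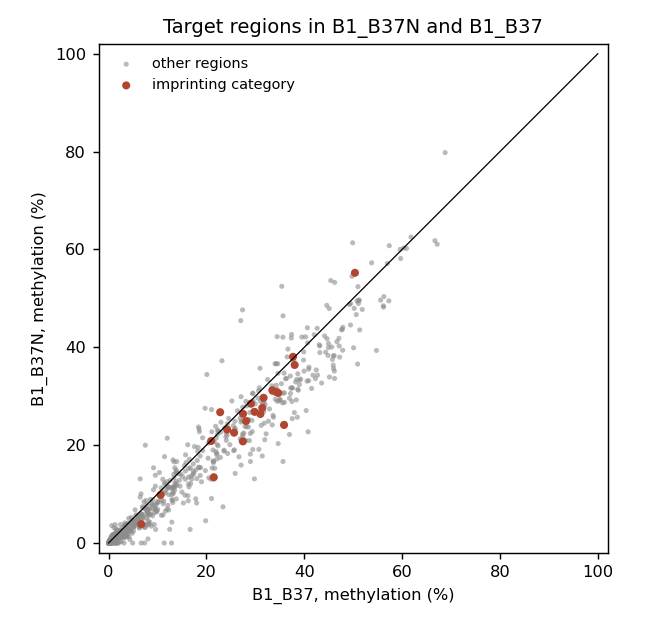
Methylation (percent) of each target region with a value in both columns, B1_B37N on the vertical axis and B1_B37 on the horizontal axis, with regions of the imprinting category in red and the line of equal values. Most points lie near the line: 721 of 763 regions differ by under 10 points.

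The tables hold no read counts, so depth is unknown and was followed only through missing values. Of the 868 regions, columns with N lacked 30 to 120 and columns without lacked 26 to 173. The combined difference was 1.97 regions (95% interval -13.9 to 18.1, permutation p = 0.814). The share of kept regions at exactly 0% averaged 5.64% in columns with N and 3.69% in columns without, a combined difference of 0.772 points within prefixes (permutation p = 0.476). Combined over the prefixes, columns with N did not vary detectably more or less around their own median than columns without (difference in mean absolute deviation of the library mean -0.519 points, permutation p = 0.777). The sign differed between prefixes: -4.44 points in B1 (exact permutation p = 0.110), 2.99 in B3A (exact permutation p = 0.187) and 1.01 in B3B (exact permutation p = 0.749).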

How the data were processed

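The authors deposited average methylation fractions of 868 target regions and fractions of 7917 CpGs, each with 85 columns, whose names carry a coverage filter of 10. The sources used here do not say what was filtered. The submitters' processing notes name mm10, Bismark, Bowtie2 and Trim Galore 0.6.4, with no role or order. The deposited values carry no counts, so the precision of a value is unknown. Fractions are given here as percent.

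Columns were matched to library titles by name, and the table of dropped-out regions was not used. Regions covered in 80% of the 67 columns or more were kept (783 of 868, with 85 set aside); 623 were complete. Deposited averages and those rebuilt from single CpGs had r = 0.967 across values (mean absolute difference 2.79 points). Gene names and promoters came from RefSeq tables of GRCm38.p6, and 708 kept regions overlapped a gene.

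The log2 odds of methylation, with an offset of 0.01 on the fraction and on its complement, were tested with limma 3.58.1 (R 4.3.3) with prefix as a covariate, in a fit of 6 groups for single prefixes, with Benjamini-Hochberg adjustment over all regions and a threshold of 0.05; a region with a missing value was fitted without that column. Values per column were compared by two-sided permutation tests, exact within a prefix and with 100000 resamples of N within prefixes when combined, and 95% intervals came from inverting these tests. Imprinted means are means over loci of the regions with a value. Scripts were tested on simulated data and used Python 3.11.15, NumPy 2.4.6, pandas 2.3.3, SciPy 1.17.1 and matplotlib 3.10.9.

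The columns, lists and tests were chosen with earlier results of these data known. The regions named are the 12 with the smallest combined p, the 5 with the smallest p in each prefix, the 8 with the smallest p with the column's level as a covariate, and regions of the imprinted, germline, pluripotency, lineage and methylation machinery lists; those with the largest gaps between B1_B37N and B1_B37 were chosen after their values were seen. Alternatives covered the regions kept, scale, offset, variance model, column level, source of the averages, titles and columns left out.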

Additional observations from a re-analysis of the deposited data

Results flagged for a closer look

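In 76 groups of 4 to 10 columns (7 column measures and the 12 regions with the smallest combined p), 17 values lay far from the rest of their group relative to its range. Chance gives about 1 in 20 groups if values are normal and groups independent. The groups share columns and their levels, and normality was not tested, so these 17 values are not shown to be an excess. They fell mostly on a few columns. Among the 6 B1 columns with N, B1_B37N was lowest in library mean (14.4%, the next 25.4%), imprinted mean (27.2%), the 2-cell stage category (24.6%) and the Wdfy3 region (62.5%). Among the 10 B3B columns without N, B3B_8 was highest in library mean (42.2%, the next 18.3%), imprinted mean (49.4%), the 2-cell stage category (55.1%), X-linked regions (64.6%) and the Gm34939 (3.17%), Abcb5 (80.4%) and Ptpn5 (52.6%) regions. In the same group B3B_23 lacked 173 regions, the next 104, and B3B_35 was highest at Fgfr3 (1.63%). Among the 9 B3B columns with N, B3B_44N was highest at Abcb5 (88.1%) and Tmem51os1 (5.16%), and B3B_15N was lowest in imprinted mean minus other regions (-12.4 points, the next -3.41). Among the 4 B3A columns without N, B3A_34 was highest at Fgfr3 (1.62%, the next 0.613%).

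The difference between columns with and without N in imprinted mean minus other regions varied between the prefixes (permutation p = 0.0186, adjusted p = 0.316 over 17 measures), with 6.16 points in B1, 4.15 in B3A and -3.16 in B3B. In B1 it was 5.72 points without B1_B37N and 5.53 points without B1_B40, the lowest column. In B3B it was -1.76 points without B3B_15N.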

How the results depend on the processing

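No paired analysis was possible because columns with and without N share only 1 line number within a prefix (B37 in B1) and no replicate numbers; leaving that pair out is 1 of the alternatives. No region was called by limma in any of 20 alternatives of the combined fit (smallest adjusted p 0.0925 to 0.989; 3 to 108 regions at an unadjusted p under 0.05, against 11), nor in 12 within prefixes or of the difference between them (0.0708 to 0.996). The difference in library mean kept its sign in 17 of 18 alternatives (1.18 to 4.13 points, p from 0.115 to 0.660); leaving out each B3A column without N gave 2.31 to 2.98 points, and 4.25 to 7.42 within B3A.

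Values that changed sign, with the cause not tested except where the prefix was ignored, were as follows. With no prefix term the library mean gave -2.72 points, 2.68% of regions were higher in place of 72.2%, and log2 odds turned to -0.38 at Gm41005, -0.18 at Abcb5, -0.25 at Ptpn5, -0.23 at Arsk, -0.11 at Wdfy3 and -0.25 at Gpr1. With each column centred, 39.8% were higher, and with its level as covariate 50.8%. The median over regions gave -1.01 points within B1, missing values in kept regions alone gave -0.329 regions, and imprinted minus other regions without B1 gave -0.214 points. Per-column measures that crossed 0.05 were the imprinted mean without B3B_8 (6.28 points) and without B3B (8.55 points), imprinted minus other regions without B3B (5.35 points), its variation between prefixes without B3B_15N (p = 0.0527), and the 2-cell stage category without B3B_8 (7.44 points). Of the 12 regions with the smallest combined p, all 11 with an unadjusted p under 0.05 went above it in at least 1 of 18 to 20 alternatives, from 1 (Pramel18) to 11 (Tmem51os1). Leaving out each B3A column without N moved imprinted minus other regions to 1.72 to 2.30 points combined and 2.604 to 5.33 within B3A. Chosen after seeing the data were the settings that leave out B3B_8, B3B_23, B3B_15N, B1_B40, B1_B37N alone or, for the imprinted mean, a prefix; within B1, that without the B37 pair; single CpGs as the unit; lines with 1 title for missing values; and all those on imprinted minus other regions. The 4 B3A columns without N limit that prefix most, and depth is unknown throughout.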

Other observations

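Pairs of columns that share a final N had the highest median correlation in B1 and in B3A and the lowest in B3B. After each region was centred on its prefix mean, the correlation over regions had a median of 0.0870 between 15 pairs of B1 columns with N, -0.126 between 132 pairs with 1 of each kind and -0.0195 between 231 pairs without N. In B3A the medians were -0.0458, -0.0861 and -0.0812, and in B3B they were -0.0989, -0.0621 and -0.0830, in that order of pairs. Single pairs reached 0.761 in B3A and 0.636 in B3B between a column with N and one without. These values are descriptions over regions and carry no test.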
